A study of Homo sapiens with 9 samples.

Results

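Integrin subunits were examined in SNU5, an established cell line from a human gastric carcinoma, as 10 listed genes matched by symbol to the 60880 Ensembl gene IDs of the count files. The α subunit genes were ITGA2, ITGA3, ITGA5, ITGA6 and ITGAV, and the β subunit genes were ITGB1, ITGB2, ITGB4, ITGB5 and ITGB6. All 10 were found, and 9 had enough counts for a test, the exception being ITGB6. The NR group had received gold nanorods and the SP group gold spheres, both carrying ramucirumab on PEG (AuNR-PEG-Ab and AuSP-PEG-Ab), and the Ab group had received free ramucirumab. Ramucirumab is a monoclonal antibody against VEGFR2. In all 3 groups the cells were exposed for 24 h at 8 μg/mL of antibody, so every group analysed here carried the antibody, and neither untreated cells nor particles without antibody were part of these libraries. Each group had 3 poly-A RNA-seq libraries, 9 in all. The cells were 1 cell line. The study refers to its replicates as biological and to its in vitro experiments as independently repeated, while the labels do not say whether the 3 libraries of a group came from separate cultures. The p-values measure the spread between these libraries, which may be technical if they did not.

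Integrins are the main receptors that hold animal cells to the extracellular matrix. Each receptor is a pair of one α and one β chain, and the pair sets the ligand: α3 and α6 chains bind laminins, α2 binds collagens, and α5 and αV bind matrix proteins that carry the arginine-glycine-aspartate (RGD) motif. The β1 chain serves many α chains, β4 pairs with α6 in hemidesmosomes, β5 and β6 pair with αV, and β2 belongs to white blood cells. In epithelial tissues, integrins anchor cells to the basement membrane and pass adhesion signals to talin, kindlins and focal adhesion kinase, and αV and β1 integrins also take part in the uptake of bound particles and viruses.

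The library totals were 25735410, 13863155 and 15943980 counts in NR, 21682836, 22914759 and 20601906 in SP, against 19566064, 26318227 and 21031024 in Ab. Among replicates, Ab1 stood apart from Ab2 and Ab3, with a chi-square per gene of 7.43 and 6.95 against them, where Ab2 and Ab3 gave 2.17. All 9 within-group pairs lay above the value of 1 that sampling noise gives, with 1.84 as the lowest, so each library was kept as 1 replicate. Values are given in CPM, counts scaled to equal library size with TMM factors. A count of 3 was taken as the detection floor, which was 0.114 to 0.216 CPM. Mitochondrial genes took 4.36% to 4.66% of the counts in NR and SP libraries and 3.41% to 3.71% in Ab libraries. This difference ran along with the group differences below, and its part in them was not tested.

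The epithelial label of the line was checked on 8 markers. Their summed level was 2401 ± 11.2 CPM in NR, 2486 ± 52.3 CPM in SP and 980 ± 36.7 CPM in Ab (SD, n = 3), with KRT8, a keratin of simple epithelia, as the most abundant gene. KRT19 had at most 1 count in any library. CDH1, the gene of E-cadherin, had 150, 79 and 88 counts in NR, 134, 159 and 149 in SP, against 5, 5 and 9 in Ab. The epithelial adhesion gene EPCAM had 141, 86 and 63 counts in NR, 123, 108 and 91 in SP, against 29, 43 and 35 in Ab. Thus 2 of the defining epithelial markers were low in all libraries and lowest in Ab. Of the 8 genes, 7 were tested against Ab, and 5 passed the adjusted p with higher values in NR and in SP, beside 36.4% of all genes tested in each of these comparisons. Those with the smallest adjusted p in NR were KRT8, 2.87-fold higher, ELF3, an epithelial transcription factor, 1.98-fold higher, and CDH1.

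Markers of other cell types were read in the same way. The 9 fibroblast markers summed to 366 ± 21.4 CPM in NR, 353 ± 7.63 CPM in SP and 355 ± 11.4 CPM in Ab (SD, n = 3), with VIM as the most abundant gene and THY1 at the floor. Within that flat sum, the matrix genes LUM and DCN and the receptor gene PDGFRB were far higher in both nanoparticle groups: the NR libraries held 986, 514 and 590 LUM counts, against 18, 24 and 20 for Ab. In NR against Ab, the log2 fold changes were 5.30 for LUM, 5.14 for DCN and 4.65 for PDGFRB, each past the edgeR adjusted p. Of the 8 fibroblast markers tested, 3 passed the adjusted p higher, 1 passed it lower and 4 did not pass, in each comparison with Ab, where 72.7% of all genes passed in NR and 73.0% in SP. The 7 endothelial markers, of which PECAM1 was not matched, summed to 22.6 ± 1.20 CPM in NR, 22.7 ± 1.67 CPM in SP and 4.22 ± 0.812 CPM in Ab (SD, n = 3), mostly from CDH5, while TIE1 and TEK were at the floor. KDR, the gene of VEGFR2, had at most 1 count in any library. The 15 leukocyte markers summed to 6.27 ± 0.244 CPM for NR, 7.09 ± 0.915 for SP and 3.70 ± 0.798 for Ab (SD, n = 3). Of these genes, 8 were at or under 3 counts in all 9 libraries, the pan-leukocyte gene PTPRC and the myeloid factor SPI1 included, and MS4A1 and LYZ were at 0. The monocyte gene CD14 had at most 21 counts in any library and was lower in NR than in Ab, with a log2 fold change of -1.52 past the edgeR adjusted p. The 5 platelet markers summed to 3.91 ± 0.264, 4.16 ± 0.228 and 2.01 ± 0.0587 CPM in NR, SP and Ab (SD, n = 3), led by ITGA2B, with GP9 and PPBP at 0, and the platelet gene GP1BA, at most 24 counts, did not pass. The epithelial, endothelial, leukocyte and platelet sums were thus higher in both nanoparticle groups. Most of the platelet sum was ITGA2B, itself an integrin subunit, at 3.22, 3.30 and 1.38 CPM in NR, SP and Ab. The part of the marker sums in the integrin differences was not tested. In bulk RNA fewer cells of a type and less RNA per cell cannot be told apart.

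Against free antibody, the integrin transcripts moved in opposite directions in both nanoparticle groups. The laminin, collagen and fibronectin receptor chains ITGA3, ITGA2, ITGA5 and ITGA6 and their partners ITGB1 and ITGB4 fell, with ITGA3 2.38-fold lower in NR and 2.22-fold lower in SP. ITGAV and its partner ITGB5 rose by 1.17-fold to 1.21-fold, and ITGB2 rose 2.20-fold in NR and 1.94-fold in SP. NR and SP did not differ in any tested integrin subunit past the adjusted p. The 10 genes together took 0.202% to 0.208% of the counts in NR libraries, 0.208% to 0.211% in SP and 0.274% to 0.287% in Ab.

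The test was edgeR's quasi-likelihood test on 6 libraries per comparison with Benjamini-Hochberg adjustment over all genes tested. A gene that reached an adjusted p of 0.05 or less and a change of 2-fold or more is referred to as called. In NR against Ab, 3 of the 9 tested subunits were called, where 22.7% of all 15009 genes tested were. ITGB2 was called higher, a direction in which 12.4% of all genes were called, and ITGA2 and ITGA3 lower, a direction with 10.3%. By the adjusted p alone, all 9 passed, 3 higher and 6 lower, against 72.7% of all genes, 36.4% in each direction. In SP against Ab, ITGA2 and ITGA3 were called lower and no subunit higher, where 23.2% of 15068 genes were called, 12.6% higher and 10.6% lower. By the adjusted p alone, all 9 passed again, 3 higher and 6 lower, against 73.0% of all genes. The number called in SP fell to 1 without library SP1, since ITGA2 lay close to the 2-fold bound. Without Ab1, 3 subunits were called in NR and 2 in SP, and all 9 passed the adjusted p in both. Passing the adjusted p was therefore the common case among all genes here. Over the 9 subunits, the log2 fold changes had a median of -0.44 for NR and -0.33 for SP, beside medians over all genes of -0.0055 and -0.0067. In CPM, the libraries of the groups did not overlap for any of the 9, with 3 higher and 6 lower in each comparison, where this held for 74.7% of all genes in NR against Ab (38.8% higher and 35.8% lower) and for 75.0% in SP against Ab (39.0% and 36.0%). Both comparisons share the same 3 Ab libraries and are not independent of each other.

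**Figure D1:**
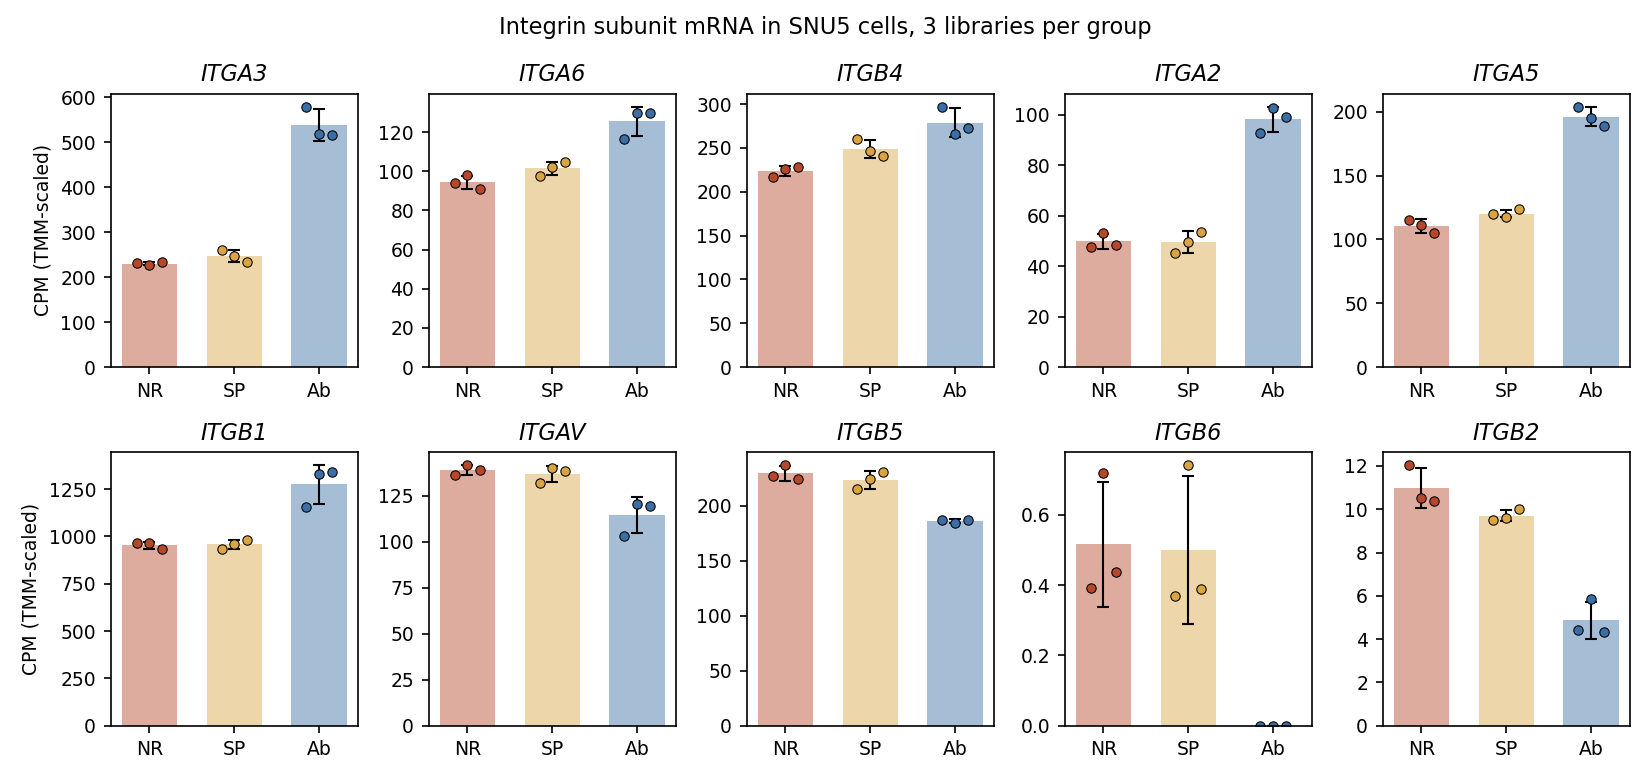
Level of the 10 integrin subunit genes in CPM (TMM-scaled, linear axis from 0) by group, with each point a library, each bar the mean of 3 libraries and whiskers the SD. The Ab bar is the tallest for ITGA3, ITGA6, ITGB4, ITGA2, ITGA5 and ITGB1 and the shortest for ITGAV, ITGB5, ITGB6 and ITGB2.

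**Figure D2:**
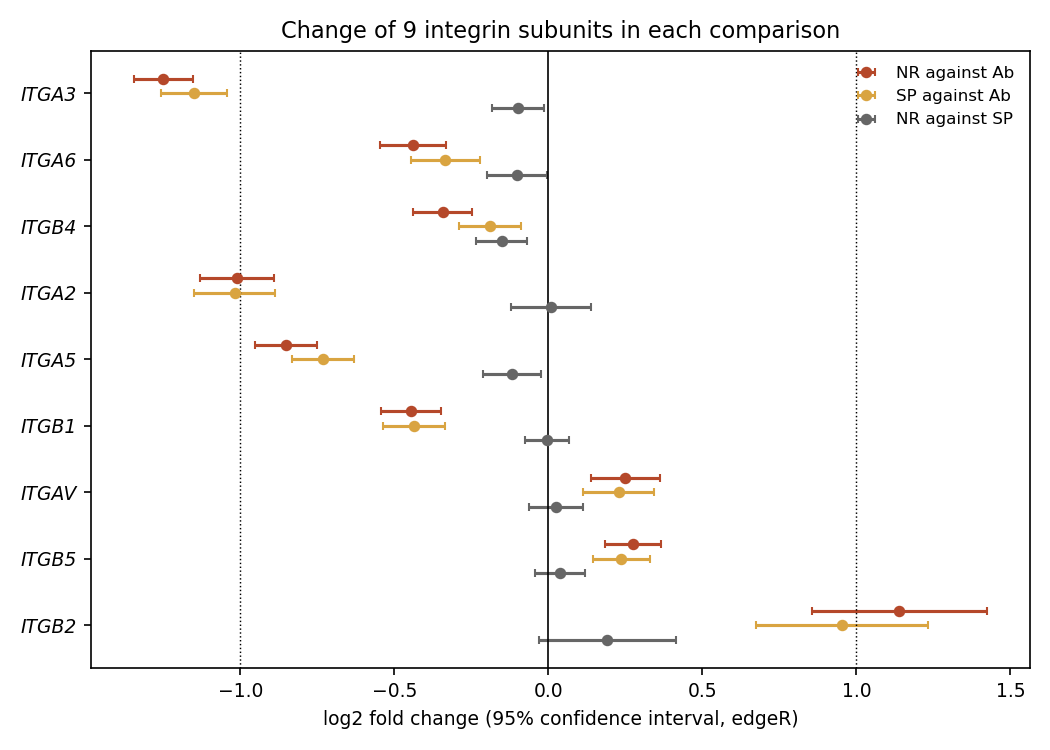
Log2 fold change of the 9 tested subunits in each of the 3 comparisons, as points with 95% confidence intervals from edgeR, with dotted lines at the 2-fold bound. Both comparisons with Ab lie on the same side of 0 for each gene, and NR against SP lies between -0.15 and 0.19.

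Promoters are shown for 4 subunits, a pair of genes that fell (ITGA2 and ITGA5) and a pair that rose and whose products join in 1 receptor (ITGAV and ITGB5), so that the sequence around their starts can be compared. The sequences are from RefSeq on GRCh38.p14 and run from 250 bases before to 50 bases after the outermost start in the table, 5′ to 3′ along the gene. Of the 10 subunits, 7 had an entry, with 12 entries in all. ITGA2 lies at chr5:52989102-52989401 on the plus strand, ITGA5 at chr12:54419217-54419516 on the minus strand, ITGAV at chr2:186589806-186590105 on the plus strand and ITGB5 at chr3:124901369-124901668 on the minus strand. Capitals mark matches, on either strand, to the GC box GGGCGG, the TATA box TATAAA, the CCAAT box, the AP-1 motif TGANTCA and the TEAD motif GGAATG.
ITGA2: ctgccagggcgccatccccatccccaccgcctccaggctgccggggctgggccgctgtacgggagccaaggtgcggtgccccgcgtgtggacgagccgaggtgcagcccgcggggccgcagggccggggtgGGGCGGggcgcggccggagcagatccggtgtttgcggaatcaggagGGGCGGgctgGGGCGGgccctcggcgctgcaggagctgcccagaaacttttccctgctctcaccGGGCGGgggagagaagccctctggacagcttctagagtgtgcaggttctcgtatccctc
ITGA5: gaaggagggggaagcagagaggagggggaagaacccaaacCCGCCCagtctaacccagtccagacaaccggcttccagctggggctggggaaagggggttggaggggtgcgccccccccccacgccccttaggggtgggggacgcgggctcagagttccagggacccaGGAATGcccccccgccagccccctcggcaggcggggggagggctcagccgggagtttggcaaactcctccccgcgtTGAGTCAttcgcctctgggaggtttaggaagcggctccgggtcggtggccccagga
ITGAV: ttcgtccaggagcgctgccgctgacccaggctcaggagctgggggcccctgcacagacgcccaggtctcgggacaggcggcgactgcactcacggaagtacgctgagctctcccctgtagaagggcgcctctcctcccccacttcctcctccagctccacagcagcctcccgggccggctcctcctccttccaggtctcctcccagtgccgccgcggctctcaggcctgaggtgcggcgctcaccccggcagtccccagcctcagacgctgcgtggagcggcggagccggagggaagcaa
ITGB5: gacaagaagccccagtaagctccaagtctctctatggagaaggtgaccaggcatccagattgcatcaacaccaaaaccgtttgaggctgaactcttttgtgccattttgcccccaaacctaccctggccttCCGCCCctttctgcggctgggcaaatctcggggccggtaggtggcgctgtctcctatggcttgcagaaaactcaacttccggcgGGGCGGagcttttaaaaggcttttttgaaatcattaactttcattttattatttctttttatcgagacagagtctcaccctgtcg
The ITGA2 window held 4 GC boxes and no other of these motifs, with 72.67% of its bases G or C. The ITGA5 window held 1 GC box, 1 AP-1 match and 1 TEAD match. The ITGAV window held none of the 5 motifs at 70.67% G or C, and the ITGB5 window held 2 GC boxes at 49.67%. ITGB5 had further starts in the table, whose windows held 2 and 3 GC boxes at 59.67% and 75.67% G or C. ITGAV also had a further start, whose window held none of the 5 motifs at 41.33%. Over all 35116 promoters in the table, 44.95% held a GC box, 11.53% a TATA box, 34.61% a CCAAT box, 7.709% an AP-1 match and 14.03% a TEAD match. A match is a description of the letters in these windows.

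The laminin receptor chains come first by role. ITGA3 (chr17:48133332-48167845 on the plus strand; these and the other gene positions are of GRCh37 with GENCODE release 44) encodes α3, which with β1 binds the laminins of the basement membrane. It stood at 231, 228 and 233 CPM in NR, 261, 247 and 234 in SP, against 580, 518 and 517 in Ab. Every Ab library lay more than 2-fold above every library of the other groups except the 261 CPM of SP1, which was less than 2-fold below Ab2 and Ab3. The log2 fold change was -1.25 (SE 0.047, edgeR adjusted p = 1.90e-19) in NR against Ab and -1.15 (SE 0.051, edgeR adjusted p = 1.87e-16) in SP against Ab. This was the deepest fall among the subunits in both comparisons.

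ITGA6 (chr2:173292082-173371187, plus strand) encodes α6, a laminin-binding chain that pairs with β1 or β4. Its levels were 94.2, 98.0 and 91.1 CPM in NR, 97.5, 102 and 105 in SP, against 117, 130 and 130 in Ab. The 6 nanoparticle libraries all lay below the lowest Ab library, Ab1. The log2 fold change was -0.44 (SE 0.053, edgeR adjusted p = 2.04e-08) in NR against Ab and -0.33 (SE 0.054, edgeR adjusted p = 3.61e-06) in SP against Ab. ITGB4 (chr17:73717408-73753899, plus strand) encodes β4, whose long cytoplasmic tail ties α6β4 to keratin filaments in hemidesmosomes. It was at 217, 226 and 229 CPM in NR, 260, 246 and 240 in SP, against 297, 266 and 273 in Ab. The 3 groups did not overlap, with NR lowest, SP between and Ab highest, though SP1 came within a few CPM of Ab2. Its log2 fold change of -0.34 (SE 0.047, edgeR adjusted p = 2.28e-07) in NR and -0.19 (SE 0.049, edgeR adjusted p = 0.00116) in SP was the smallest fall of the 6. The ratio of ITGB4 to ITGA6 per length averaged 2.34 ± 0.116 in NR, 2.43 ± 0.187 in SP and 2.21 ± 0.271 in Ab (SD, n = 3), and the libraries of the groups overlapped.

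ITGA2 (chr5:52285170-52390609, plus strand) encodes α2, which with β1 is a collagen receptor of epithelia and platelets. Its levels were 47.7, 53.3 and 48.6 CPM in NR, 45.1, 49.5 and 53.7 in SP, against 92.8, 103 and 99.2 in Ab. The nanoparticle libraries mixed with each other, and all lay far below the Ab libraries. The change was 2.02-fold down in both, with a log2 fold change of -1.01 (SE 0.059, edgeR adjusted p = 5.71e-15) in NR and -1.02 (SE 0.064, edgeR adjusted p = 5.29e-14) in SP. Because the change lay at the bound of 2-fold, the call was lost in NR without NR1 (-0.98) or Ab2 (-0.98) and in SP without SP1 (-0.97) or Ab2 (-0.99), while the adjusted p held in each.

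ITGA5 (chr12:54789045-54813050, minus strand) encodes α5, which with β1 forms the classical fibronectin receptor. It was at 116, 111 and 105 CPM in NR, 120, 118 and 123 in SP, against 204, 195 and 189 in Ab. All NR libraries lay under all SP libraries, and both groups were well below Ab. The fall was 1.81-fold in NR (log2 fold change -0.85, SE 0.049, edgeR adjusted p = 3.76e-15) and 1.66-fold in SP (log2 fold change -0.73, SE 0.049, edgeR adjusted p = 1.87e-13), which is short of the 2-fold bound. ITGB1 (chr10:33176201-33294720, minus strand) encodes β1, the shared partner of α2, α3, α5, α6 and αV. It was at 965, 964 and 932 CPM in NR, 935, 959 and 982 in SP, against 1157, 1328 and 1339 in Ab. Ab1 was the lowest Ab library and still lay above every nanoparticle library. The log2 fold change was -0.45 (SE 0.047, edgeR adjusted p = 9.30e-09) in NR and -0.44 (SE 0.049, edgeR adjusted p = 1.17e-08) in SP.

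ITGAV (chr2:187454737-187545628, plus strand) encodes αV, which binds vitronectin, fibronectin and latent TGF-β with β1, β5 or β6. Its levels were 137, 142 and 139 CPM in NR, 132, 140 and 138 in SP, against 103, 121 and 120 in Ab. All nanoparticle libraries were above all Ab libraries, and Ab1 was well below the other Ab libraries. The log2 fold change was 0.25 (SE 0.054, edgeR adjusted p = 0.000179) in NR against Ab and 0.23 (SE 0.056, edgeR adjusted p = 0.000703) in SP against Ab. Without Ab1 these became 0.18 and 0.16, and both still passed the adjusted p.

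ITGB5 (chr3:124480795-124620265, minus strand) encodes β5, which with αV forms a vitronectin receptor that works in endocytosis. It was at 227, 237 and 225 CPM in NR, 215, 225 and 231 in SP, against 187, 185 and 188 in Ab. The Ab libraries lay within a few CPM of each other, below all others. The log2 fold change was 0.27 (SE 0.044, edgeR adjusted p = 2.91e-06) in NR and 0.24 (SE 0.046, edgeR adjusted p = 4.15e-05) in SP. The ratio of ITGAV to ITGB5 per length averaged 0.204 ± 0.00393 in NR, 0.206 ± 0.00432 in SP and 0.207 ± 0.0184 in Ab (SD, n = 3), and the libraries of the groups overlapped. ITGB6 (chr2:160956178-161056824, minus strand) encodes β6, an epithelial chain that pairs with αV and activates latent TGF-β. It had 10, 10 and 7 counts in NR, 8, 17 and 8 in SP, against 0, 0 and 0 in Ab. At this depth it was detected in all nanoparticle libraries and in no Ab library, and the count of 0 allows up to 3 counts per Ab library. With Ab set at that floor, the mean ITGB6 level was 3.77-fold higher in NR and 3.66-fold higher in SP. These ratios leave out the counting error of the NR and SP counts. Other genes cover 16.7% of the exon bases of ITGB6, which makes so low a count uncertain. It was left out of the test by the filter on low counts, and in a fit without that filter it had an edgeR adjusted p of 1.49e-06 in NR and 9.46e-07 in SP against Ab.

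ITGB2 (chr21:46305868-46351904, minus strand) encodes β2, the common chain of the leukocyte integrins. Its counts were 308, 146 and 166 in NR, 207, 220 and 205 in SP, against 86, 155 and 91 in Ab. In CPM these were 12.0, 10.5 and 10.4 in NR, 9.52, 9.60 and 9.99 in SP, against 4.40, 5.85 and 4.35 in Ab. The 3 groups did not overlap in CPM, with NR above SP and SP above Ab, and Ab2 was the highest Ab library. The log2 fold change was 1.14 (SE 0.14, edgeR adjusted p = 2.64e-08) in NR against Ab and 0.95 (SE 0.14, edgeR adjusted p = 4.79e-07) in SP against Ab, and without Ab2 the SP value passed 2-fold with 1.12. The α partners of β2 were hardly detected: ITGAL had 0 counts in all 9 libraries, ITGAM at most 4, ITGAX at most 5 and ITGAD at most 10. PTPRC and SPI1, which mark leukocytes, were at or under 3 counts in every library.

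Levels of different genes were compared per kilobase of merged exons, a measure that depends on the exon model, and ITGAV has by far the longest one (19336 bases, against 5785 to 14561 for the others). On this scale, ITGB1 led in every group, with 65.5 ± 1.31 CPM per kb in NR, 65.8 ± 1.60 in SP and 87.5 ± 7.02 in Ab (SD, n = 3). In NR, ITGB5 (35.2), ITGB4 (33.1), ITGA3 (23.5), ITGA5 (14.97), ITGA6 (14.1), ITGAV (7.20), ITGA2 (6.32), ITGB2 (1.503) and ITGB6 (0.0892) followed, as mean CPM per kb. The neighbours ITGA5 and ITGA6 overlapped in NR. In SP the order was the same except that ITGB4 (36.8 CPM per kb) came before ITGB5 (34.3). In Ab, ITGA3 was second with 54.9 CPM per kb, before ITGB4 (41.2), ITGB5 (28.6), ITGA5 (26.6) and ITGA6 (18.8), and ITGA2 (12.4) stood before ITGAV (5.93). The 10 genes made up 92.8%, 93.0% and 94.6% of the summed level per length of all 26 integrin genes in NR, SP and Ab.

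The make-up of the chain pool differed accordingly. Among the 5 α subunits, αV took 10.9% ± 0.223 of the summed CPM per kb in NR, 10.1% ± 0.328 in SP and 5.01% ± 0.518 in Ab (SD, n = 3). The α3 share was 35.6% ± 0.935 in NR, 36.0% ± 2.01 in SP and 46.3% ± 2.16 in Ab, and the α6 share was 21.4% ± 0.448, 21.7% ± 0.728 and 15.9% ± 1.27. Shares of α3, α6 and αV did not overlap between nanoparticle and Ab libraries, each with an exact two-sided permutation p = 0.1, the smallest that 3 libraries against 3 can give. The share of α5 stayed between 22.4% and 23.3% in group means, and that of α2 between 8.94% and 10.5%. Among the 5 β subunits, β1 took 48.4% ± 0.677 in NR, 47.6% ± 0.683 in SP and 55.3% ± 2.87 in Ab. The β5 share was 26.0% ± 0.384, 24.8% ± 0.655 and 18.1% ± 0.589 in NR, SP and Ab, with no overlap between nanoparticle and Ab libraries. The β4 share lay between 24.5% and 26.6% in group means. Ratios within a library do not depend on the scaling between libraries. The ratio of ITGAV to ITGA5, the α chains of the vitronectin and fibronectin receptors, averaged 0.482 ± 0.0279 in NR, 0.435 ± 0.0187 in SP and 0.224 ± 0.0265 in Ab (SD, n = 3), and that of ITGB5 to ITGB1 averaged 0.538 ± 0.0121, 0.521 ± 0.00644 and 0.328 ± 0.0285. Both ratios were higher in every nanoparticle library than in every Ab library (exact permutation p = 0.1).

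**Figure D3:**
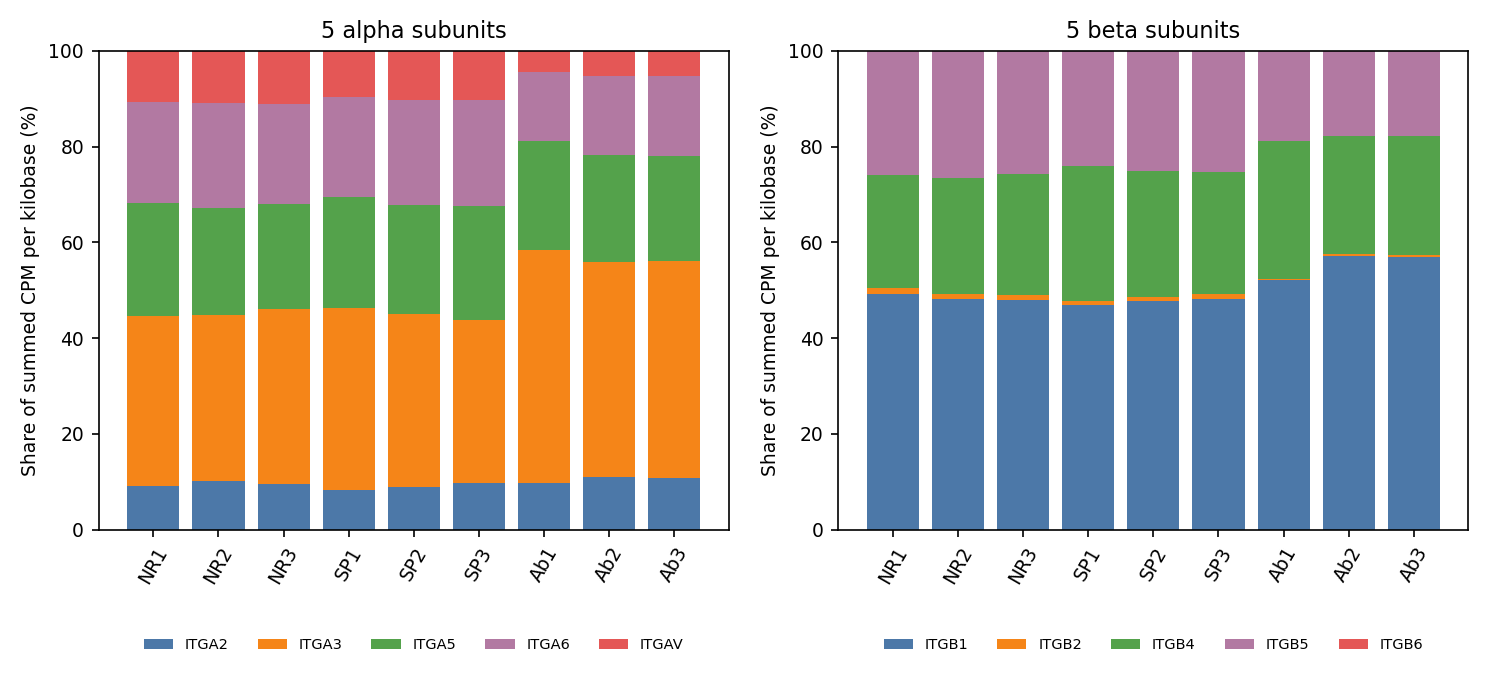
Share of each chain in the summed CPM per kilobase of the 5 α subunits (left) and the 5 β subunits (right), in percent, with 1 stacked bar per library. The ITGAV and ITGA6 parts are wider and the ITGA3 part narrower in all 6 NR and SP libraries than in the 3 Ab libraries, and the ITGB5 part is wider and the ITGB1 part narrower.

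NR and SP were compared directly, since the study asked whether the shape of the particle mattered. With edgeR, 0 of the 9 tested subunits passed the adjusted p, and with DESeq2 0 of the 8 to which it gave one, all but ITGB2. With edgeR, 4 had an unadjusted p under 0.05, where 0.443% of 14903 genes passed the adjusted p (0.262% higher and 0.181% lower) and 12.9% had an unadjusted p under 0.05. No subunit was called, where 0.0201% of all genes were, all of them higher in NR. The lowest adjusted p was that of ITGB4, with a log2 fold change of -0.15 (95% interval -0.23 to -0.069, edgeR adjusted p = 0.0837). Fitted without the filter on low counts, ITGB4 reached an edgeR adjusted p of 0.0274. ITGA3 had a log2 fold change of -0.098 (95% interval -0.18 to -0.014), ITGA5 -0.12 (-0.21 to -0.024) and ITGA6 -0.10 (-0.20 to -0.0048). For ITGA2 it was 0.0096 (-0.12 to 0.14), for ITGB1 -0.0054 (-0.076 to 0.066), for ITGAV 0.025 (-0.062 to 0.11) and for ITGB5 0.039 (-0.042 to 0.12). ITGB2 had the widest interval, 0.19 (-0.032 to 0.41). Libraries did not overlap between NR and SP for 4 of the 9 genes, ITGB2 higher in NR and ITGA3, ITGA5 and ITGB4 lower, where this held for 17.9% of all genes tested, 8.21% higher and 9.72% lower. For ITGA3 the lowest SP library, SP3, lay just above the highest NR library.

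Among the 16 other integrin subunits, 5 were tested. ITGA7 and ITGA2B, the chains of a muscle laminin receptor and of the platelet fibrinogen receptor, were called higher in both comparisons from low counts. ITGA7 had 90, 56 and 43 counts in NR, 72, 91 and 85 in SP, against 27, 36 and 25 in Ab (log2 fold change 1.34, SE 0.23, in NR and 1.505, SE 0.21, in SP, edgeR adjusted p = 6.62e-06 and 4.38e-07). ITGA2B had 89, 45 and 47 counts in NR, 72, 75 and 68 in SP, against 32, 33 and 26 in Ab (log2 fold change 1.22 and 1.24, edgeR adjusted p = 2.08e-05 and 1.13e-05). In both genes all nanoparticle libraries had more counts than the Ab libraries. ITGAE, the chain that binds E-cadherin, fell with a log2 fold change of -0.78 in NR (SE 0.088, edgeR adjusted p = 5.76e-09) and -0.71 in SP (SE 0.084, edgeR adjusted p = 1.72e-08). The remaining tested subunits, ITGB8 and ITGA1, had log2 fold changes of 0.34 and 0.023 in NR, of which ITGB8 passed, and of 0.15 and 0.048 in SP, of which neither passed. The other 11 had at most 28 counts in any library, and 4 of them were at or under 3 counts in all 9. They include ITGA8, the main receptor chain for nephronectin, with at most 1 count, and ITGB3, the other vitronectin receptor chain of αV, with at most 2 counts.

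The counts of called genes in the lists that follow are to be read against those of all genes tested, 12.4% called higher and 10.3% lower in NR against Ab, and 12.6% and 10.6% in SP against Ab. Of 22 genes for RGD and related ligands, 15 were tested, and 6 were called higher and 0 lower in both comparisons. Under a filter of at least 10 counts in every library, 5 were called in NR against Ab and 4 in SP against Ab. VWF, with Ab counts of 0, 0 and 1, did not meet that filter. Over the 15 tested genes the log2 fold changes had a median of 0.37 in each comparison. This median is the same with VWF, at the floor in Ab, set at that floor. VTN, which encodes vitronectin, had 328, 190 and 232 counts in NR, 273, 313 and 266 in SP, against 24, 26 and 35 in Ab, a rise of 10.4-fold in NR (edgeR adjusted p = 1.80e-16) and 10.0-fold in SP (edgeR adjusted p = 2.83e-16). All nanoparticle libraries had several times the VTN counts of the Ab libraries, and other genes cover 17.3% of its exon bases. NPNT, the gene of nephronectin, rose 4.87-fold in NR (edgeR adjusted p = 1.22e-21) and 5.07-fold in SP (edgeR adjusted p = 3.29e-21). CCN1, a matricellular ligand of αV and α6 integrins, fell with a log2 fold change of -0.65 in NR and -0.47 in SP. Outside the naming rule and chosen after their values were seen, FN1, the gene of fibronectin, had a log2 fold change of 1.70 in NR and 1.92 in SP, and MFGE8, an RGD ligand of αVβ5, of 2.64 and 2.80. FN1 was also 1 of 2 listed genes that passed the adjusted p between NR and SP, lower in NR by a log2 fold change of -0.22 (edgeR adjusted p = 0.0256). The other was the collagen gene COL5A1. VWF, an endothelial marker, was counted 34, 21 and 21 times in NR, against 0, 0 and 1 for Ab.

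Of 12 laminin chain genes, 11 were tested, of which LAMA2 was called higher in both comparisons and LAMA1 lower in NR. The number called went from 2 to 1 in NR without Ab1, and from 1 to 2 in SP without SP2 or Ab2. LAMA5, the α5 chain of the main epithelial laminins, had 19867, 11852 and 13869 counts in NR, 20460, 20849 and 17413 in SP, against 32725, 40011 and 32059 in Ab. It fell 1.92-fold in NR (edgeR adjusted p = 1.68e-14) and 1.78-fold in SP (edgeR adjusted p = 1.498e-14). LAMA1, the chain of the embryonic laminin, fell 2.03-fold and 1.96-fold (edgeR adjusted p = 5.53e-15 and 3.53e-13), and LAMB2, a β chain of vessel and muscle laminins, rose 1.35-fold and 1.503-fold (edgeR adjusted p = 9.58e-08 and 4.93e-10). Of 12 collagen ligand genes, all were tested. COL7A1, the anchoring fibril collagen beneath hemidesmosomes, had 9130, 5101 and 6053 counts in NR, 7884, 8683 and 7194 in SP, against 40768, 50867 and 41013 in Ab. It fell 5.51-fold in NR (edgeR adjusted p = 1.59e-26) and 5.56-fold in SP (edgeR adjusted p = 1.82e-25). The basement membrane collagen COL4A5 rose 1.87-fold in NR and 1.95-fold in SP, and the microfibril collagen COL6A1 rose 1.82-fold and 1.80-fold, each past the edgeR adjusted p. In NR 1 collagen gene was called higher and 1 lower, and in SP 1 and 2. The 2 called in NR became 1 without Ab1 and 4 without Ab3, and the 3 called in SP became 1 without SP1 or SP2. Over the collagen list the log2 fold changes had a median of 0.089 for NR and 0.27 for SP, and over the laminin list of 0.039 and 0.20. Of 12 cell-surface ligands, 6 were tested and 2 were called higher in both comparisons, or 1 under a filter of at least 10 counts in every library, which CDH1 with its Ab counts of 5, 5 and 9 did not meet. The 2 were CDH1, the ligand of αEβ7, at 4.27 and 4.52 on the log2 scale, and F11R, an αLβ2 ligand of tight junctions, at 3.53 and 3.59, with other genes over 36.6% of its exon bases. ICAM1, the best known β2 integrin ligand, rose 1.57-fold in NR and 1.48-fold in SP, and other genes cover 25.4% of its exon bases.

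Inside the cell, 38 of 42 genes for activators and adhesion adaptors were tested. In both comparisons 5 were called higher and 1 lower, or 6 in all, beside 22.7% and 23.2% of all genes, and the median over the list was -0.20 for NR and -0.085 for SP on the log2 scale. PARVA, the actin-linking partner of integrin-linked kinase, rose 2.103-fold in NR and 2.20-fold in SP (edgeR adjusted p = 9.12e-17 and 4.44e-17), and TNS1, a tensin of mature adhesions, rose 3.81-fold and 4.21-fold (edgeR adjusted p = 1.39e-15 and 2.15e-16). ZYX, the adhesion protein zyxin, fell 1.81-fold and 1.80-fold (edgeR adjusted p = 7.07e-16 and 3.01e-15). The gene called lower was ILK, with at most 7 counts in the nanoparticle libraries, and its count is uncertain because other genes cover 78.5% of its exon bases. TLN1, the talin that switches integrins on, and PTK2, focal adhesion kinase, lay outside the naming rule. Their log2 fold changes were 0.47 and 0.011 in NR and 0.61 and 0.033 in SP, and PTK2 did not pass. Of 10 integrin inhibitors, all tested, 0 were called higher and 2 lower, and in SP the number fell to 1 without SP2, SP3 or Ab1. The filamin-binding FBLIM1 fell 2.35-fold and 2.02-fold, and SPRY2, a brake on receptor kinase signalling, fell 2.54-fold and 2.74-fold, while DAB2, an endocytic adaptor for β chains, rose 1.91-fold and 1.88-fold.

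Among 13 lateral membrane partners, all tested, 4 were called higher and 1 lower in both comparisons, 5 in all and 3 under a filter of at least 10 counts in every library, and the median over the list was 0.60 for NR and 0.57 for SP on the log2 scale. SLC3A2, which encodes the CD98 heavy chain that binds β1 tails, had 10459, 5557 and 6821 counts in NR, 10115, 9971 and 8538 in SP, against 18828, 24318 and 19359 in Ab. It fell 2.31-fold in NR (edgeR adjusted p = 3.10e-20) and 2.17-fold in SP (edgeR adjusted p = 4.22e-18). CD82, a tetraspanin that associates with β1 integrins, rose 5.81-fold and 5.59-fold (edgeR adjusted p = 8.49e-19 and 5.30e-18), and CAV1, the coat protein of caveolae, rose 2.51-fold and 2.66-fold (edgeR adjusted p = 7.24e-19 and 2.96e-18). Of 6 hemidesmosome genes, 4 were tested. PLEC, the plectin that joins β4 to keratins, had 30409, 18285 and 21714 counts in NR, 34880, 35457 and 28720 in SP, against 57303, 70441 and 56312 in Ab, and fell 2.18-fold in NR (edgeR adjusted p = 1.48e-13) and 1.85-fold in SP (edgeR adjusted p = 2.67e-13). ERBIN, a β4 binding protein, fell 1.30-fold and 1.24-fold, and COL17A1, the transmembrane collagen of hemidesmosomes, rose 2.999-fold and 2.70-fold from at most 36 counts. The hemidesmosome genes called were 2 in NR and 1 in SP, and 1 and 0 under the filter of at least 10 counts in every library. Among 17 integrin traffic genes, 15 were tested and 0 were called with edgeR or with DESeq2. By the adjusted p alone 11 passed in NR and 12 in SP, beside 72.7% and 73.0% of all genes, and the same numbers had an unadjusted p under 0.05. The recycling GTPase RAB11A rose 1.91-fold and 1.86-fold, the clathrin adaptor AP2A1 rose 1.83-fold and 1.85-fold, and ARF6, which recycles β1 integrins, fell 1.63-fold and 1.62-fold. For each of these 9 lists, no gene was called between NR and SP.

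**Figure D4:**
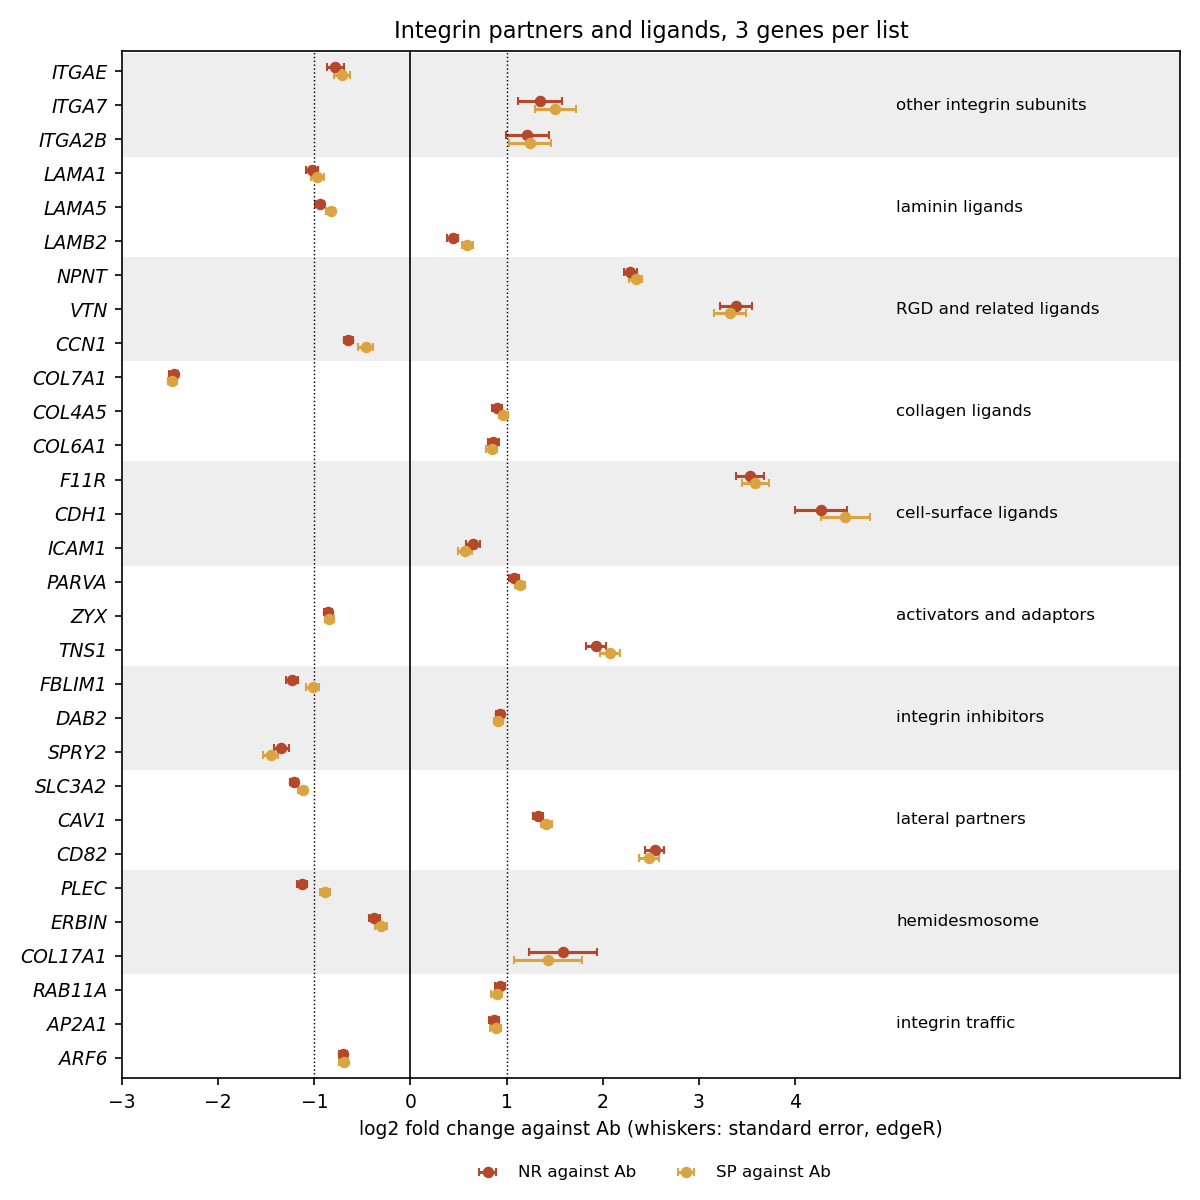
Log2 fold change against Ab in NR and SP, with standard errors from edgeR, of the 3 tested genes per list with the smallest adjusted p in NR against Ab. Dotted lines mark the 2-fold bound, and CDH1, F11R, VTN, CD82 and NPNT lie farthest to the right and COL7A1 farthest to the left in both comparisons.

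Finally, the genes with the library pattern nearest to that of the most changed subunits were listed by the root mean square difference of centred log2(CPM + 1) over 9 libraries, among 10763 genes with a mean of at least 100 counts. Nearest to ITGA3 were SLC3A2 (0.0346), LONP1, a mitochondrial protease (0.0439), and R3HDM4 (0.0453). Nearest to ITGB2 were BOLA3, a mitochondrial iron-sulfur protein (0.0829), PGM1, phosphoglucomutase (0.0881), and NDUFB1, a subunit of respiratory complex I (0.0934). The neighbours of ITGA3 were closer than those of ITGB2, whose counts were far lower. These distances describe the shape over the same libraries and depths.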

How the data were processed

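SNU5 cells were profiled by poly-A RNA-seq, with 3 libraries each for NR, SP and Ab. The authors filtered the reads, aligned them with Hisat2 2.1.0 and deposited whole read counts per Ensembl gene, not scaled between libraries. The human build hg19 is named with the study, the submitters' processing notes list mm9, and the gene IDs are human. The counter is named inconsistently, and the annotation release, strand setting and batches are not given in the sources used here, so genes that share exon bases with others are uncertain.

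Gene models came from GENCODE release 44 on GRCh37. They matched 59858 of the 60880 IDs, leaving 1022 IDs with up to 0.115% of a library's counts. Comparisons of 2 groups were fitted on their 6 libraries in edgeR 4.0.16 under R 4.3.3. Low genes were dropped by filterByExpr (minimum count 10, minimum total 15), libraries were scaled by TMM, and robust quasi-likelihood fits were tested with Benjamini-Hochberg adjustment. Calls needed an adjusted p no higher than 0.05 and a 2-fold change. The deposited counts gave CPM, and CPM per kilobase of merged exons. Intervals of fold changes rest on the spread between libraries as edgeR estimates it, and floors cover counting error only. Of 200 changed genes in simulated counts, 98.5%, 92.5% and 98% were recovered for NR against Ab (15009 genes), SP against Ab (15068) and NR against SP (14903). These shares are not broken down by size of change. Recovery at the fold changes of the subunits was not tested separately.

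The members and gene lists were chosen with earlier results of these data known. All members are named, then the 3 tested genes with the smallest adjusted p in NR against Ab of each other list, and the 3 genes nearest in pattern to the most raised and most lowered member. The values of some genes are not reported here. The alternatives were DESeq2 1.42.0, RLE scaling, other count filters, other fold minimums, glmTreat, a fit of all 9 libraries, a replicate block, removal of the trend with exon length (loess span 0.3) and leaving out each library. Python 3.11.15 was used for tables and figures.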

Additional observations from a re-analysis of the deposited data

How the results depend on the processing

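The integrin calls against Ab moved most with the fold minimum. In NR against Ab, 3 subunits were called. With no fold minimum this became 9, and with glmTreat at 1.5-fold 4 passed the adjusted p in place of 9. The listed pathway genes called went from 29 to 58 at a 1.5-fold minimum, 103 with none and 50 with glmTreat. All genes called went from 3409 (22.7% of 15009) to 6348 at 1.5-fold and 10916 (72.7%) with none. In SP against Ab, 2 subunits were called, 4 at a 1.5-fold minimum, 9 with none, 4 with glmTreat (with 4 past its adjusted p in place of 9) and 1 after removal of the trend with exon length. The listed genes called went from 28 to 55, 104 and 45 at 1.5-fold, with none and with glmTreat. All genes called went from 3502 (23.2% of 15068) to 6385 at 1.5-fold and 11002 (73.0%) with none. Whether the share called differed between the listed genes and all genes was not tested. Without the filter on low counts 4 subunits were called in NR against Ab and 3 in SP against Ab, with 10 past the adjusted p in each, and the other integrin subunits called went from 2 to 4 in both. Leaving out each library in turn gave 2 to 3 called subunits in NR against Ab and 1 to 2 in SP against Ab, while all 9 kept their direction and passed the adjusted p. ITGA2 lost its call after removal of the length trend in NR (-0.97) and SP (-0.9975). The causes were not tested.

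In NR against SP, 0 subunits were called throughout, and 1 (ITGB4) passed the adjusted p without the filter. All genes called were 3, and 5 at a 1.5-fold minimum, 66 with none, 0 with DESeq2 or glmTreat, 27 without the filter and 1 after removal of the length trend. Leaving out 1 library gave 0 to 28, the extremes being without NR2 and without NR1, while leaving out SP1 gave 1 and leaving out SP3 gave 5. The listed genes called went from 0 to 2 with no fold minimum, and from 0 to 1 when libraries were left out. Near 0, signs turned: ITGB1 was 0.041 after removal of the length trend and -0.018 to 0.013 over the left-out libraries, and ITGA2 -0.048 to 0.072. The replicate numbers were shared by the groups, but same-numbered libraries correlated in their deviations at -0.136 to 0.0355, and 0 of 9 such pairs were over 0.1. No shared effect of the number was thus visible. Whether same-numbered libraries were prepared together is not given by the labels, and these correlations cannot show it. With the replicate block, 3, 2 and 0 subunits were called in NR against Ab, SP against Ab and NR against SP, as without it, and the collagen genes called in NR against Ab went from 2 to 4 with the block and also with all 9 libraries in the fit. No other scaling moved the median of all genes by over 0.1 on the log2 scale. Depth limits ITGB6, ITGB2 and the untested subunits most.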
